A study of Mus musculus with 12 samples.

Results

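The JAK kinases and STAT factors were taken as 9 genes by name, 4 kinase genes (Jak1, Jak2, Jak3 and Tyk2) and 5 transcription factor genes (Stat2, Stat3, Stat5a, Stat5b and Stat6), out of 14070 genes with a peak in either of the deposited lists. Every peak assigned to them is described. The study immunoprecipitated RNA carrying N6-methyladenosine (m6A) from BV2, a line of immortalised microglial cells of the mouse, after treatment with lipopolysaccharide (LPS), a component of bacterial walls. The groups were Mettl3 KO cells with LPS and WT cells with LPS, each with 3 IP and 3 input libraries, 12 libraries in all. All groups share the cell line and LPS, so there is no group without LPS, and the labels do not say how the KO was made or whether it is 1 clone. The values come from 1 peak list per genotype with no value per library, so the spread between replicates cannot be measured and no comparison here carries a test.

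Cytokine receptors of this pathway have no kinase domain of their own. JAK kinases sit on their cytoplasmic tails, phosphorylate them when a cytokine binds, and then phosphorylate STAT proteins, which pair and move to the nucleus to switch genes on. In microglia, LPS induces type I interferons and interleukins that act back on the cells through this pathway. METTL3 is the catalytic subunit of the enzyme complex that writes most m6A on messenger RNA, a mark found mainly in long exons and around stop codons and known to affect RNA stability and translation.

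Each value below is a log2 enrichment of IP over input that the authors gave a peak, and each adjusted p is theirs and tests that peak within its own list. It is not an RNA level, and the efficiency of the IP and the scaling can differ between the lists. Across 12320 genes found in both lists, the strongest peak of a gene had a median difference, Mettl3 KO minus WT, of -0.25, which is the level against which the members are read. Mettl3 itself had 6 peaks in the KO list and 3 in the WT list, with strongest log2 values of 2.07 and 1.57; these measure neither its RNA nor the knockout. The protocol text names neuroblastoma cells where the labels name BV2. In each list 12 of 13 microglia and macrophage marker genes carried a peak, all but P2ry12, and 2 of 11 neuronal and neuroblastoma markers did, Tubb3 and Gata3. A peak shows that RNA was present and does not give its amount.

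All 9 genes carried peaks in both lists, as did 87.6% of genes with a peak in either. They held 40 of the 41153 peaks in the Mettl3 KO list and 31 of the 36682 in the WT list. The KO list was thus the longer one as a whole too. Log2 values of the members' KO peaks ran from 0.34 to 1.87 (median 0.66, against 0.70 over all KO peaks). Those of their WT peaks ran from 0.39 to 2.59 (median 0.74, against 0.83 over all WT peaks). Most of these are thus modest enrichments. No member reached 4-fold in the KO list, where 11.4% of genes did, and 2 did so in the WT list, Jak1 and Stat2, where 28.0% of genes did. More peaks in the KO list than in the WT list were found for 6 of 9 members, against 40.2% of all genes; Jak3 had fewer, and Stat2 and Stat6 had equal numbers.

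**Figure D1:**
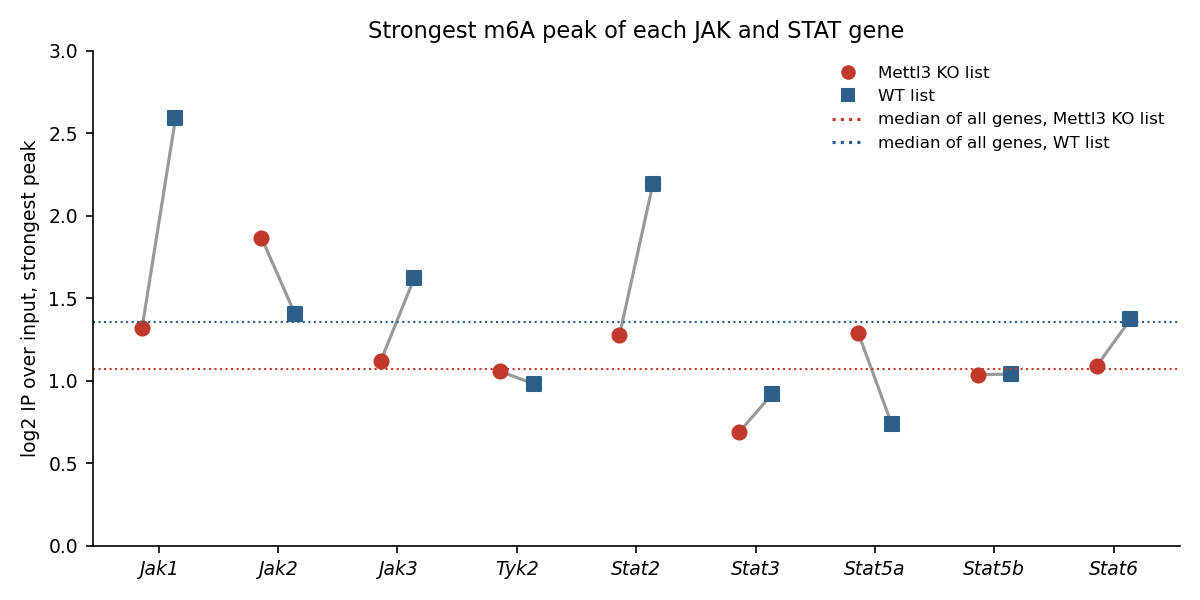
Strongest peak of each gene as log2 of IP over input (y axis), with the Mettl3 KO list as circles and the WT list as squares, 1 value per list and no error bars because no replicate values exist. Dotted lines mark the median of all genes, 1.07 in the KO list and 1.36 in the WT list; Jak1 and Stat2 stand highest in WT and Jak2 in KO.

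Peaks of the members lay in coding exons more often than peaks in general. Coding exons held 18 of the 40 KO peaks (45%) and 13 of the 31 WT peaks (41.9%), against 25.1% and 21.1% of all peaks in those lists. The 3' untranslated regions (UTRs) held 15 KO peaks and 10 WT peaks, 5' UTRs held 6 and 5, and introns held 1 and 3. The 3' UTR share was lower than that of all peaks, at 37.5% in KO and 32.3% in WT, against 51.4% and 53% of all peaks. The highest peak of a gene was nonetheless a 3' UTR peak for 7 of 9 members in each list, as it was for 62.5% of all genes in the KO list and 61.0% in the WT list. In 8 of 9 genes, all but Stat3, a peak ended within 10 bases of the annotated 3' end of the gene in the KO list and also in the WT list, where 62.2% and 59.6% of all genes had such a peak.

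**Figure D2:**
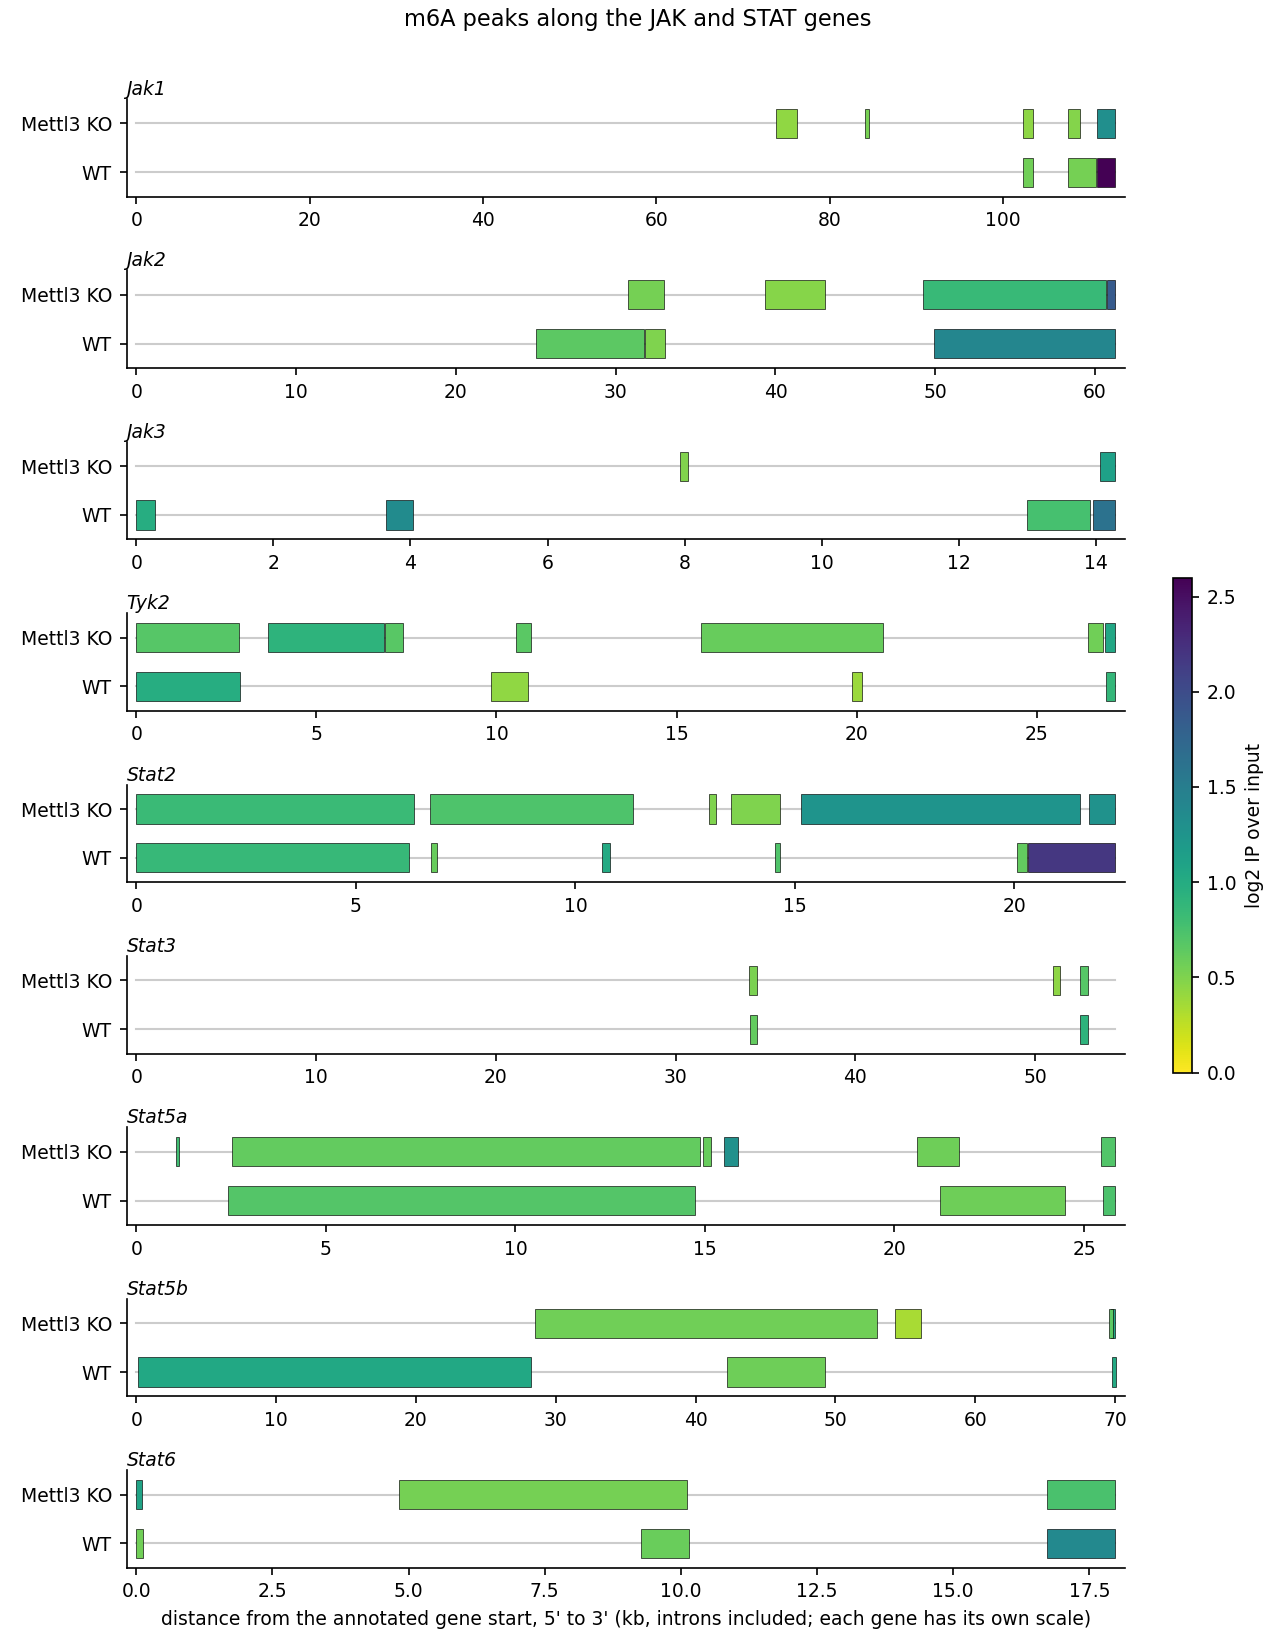
Peaks of the 9 genes drawn along each gene from its annotated 5' start (x axis, kb, introns included, a separate scale for each gene), with the Mettl3 KO list above the WT list and colour giving log2 of IP over input. The shortest peaks are widened to 0.4% of the gene so that they can be seen; the darkest bars, at the 3' end of Jak1 and Stat2, are in the WT rows.

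Jak1, the kinase that serves interferon, interleukin-6 family and common gamma chain receptors, had the strongest WT peak among the 9 genes. This 3' UTR peak runs from 101152367 to 101154399 on chromosome 4 (minus strand), with the same limits in both lists, and it reaches the annotated 3' end of the gene. Its log2 was 1.32 in the KO list (2.50-fold, adjusted p = 1.52e-248) and 2.59 in the WT list (6.02-fold, adjusted p listed as 0). The WT enrichment was thus 2.41 times the KO enrichment. A coding-exon peak with identical limits, from 101161851 to 101162956, differed little, at 0.44 in KO and 0.56 in WT. The remaining coding peaks stood at 0.43 and 0.48 in KO and at 0.54 in WT, and a KO intron peak at 0.53. The large difference in Jak1 therefore sat in 1 peak at the 3' end, and its value of -1.27 lay below those of all but 3.93% of genes. Jak1 was the only member of the 9 whose strongest peak was lower in KO by 1 or more, as in 9.54% of all genes.

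Jak2 acts downstream of receptors such as those for interferon gamma and granulocyte-macrophage colony-stimulating factor. Its 3' region was divided differently in the lists. In KO there were 2 peaks, from 29301064 to 29312500 on chromosome 19 at 0.85 (adjusted p = 2.55e-11) and from 29312601 to 29313075 at 1.87 (adjusted p = 1.59e-11). In WT a single peak ran from 29301727 to 29313075 at 1.41 (adjusted p = 1.96e-72). By the strongest peak Jak2 was thus higher in KO, by 0.46. That KO value belongs to the last 475 bases, however. Averaged by span over both KO peaks that overlap the WT peak, the KO value was 0.89 and the difference -0.52. Spans include introns, so the KO peak of 11437 bases at 0.85 set nearly all of that average. Which way Jak2 differs therefore rests on how the region was divided. Its coding peaks stood at 0.54 and 0.47 in KO and at 0.65 and 0.51 in WT.

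Jak3, the kinase of the common gamma chain, was the only member with fewer peaks in KO, 2 against 4. The peak that reaches its 3' end on chromosome 8 stood at 1.12 in KO (adjusted p = 0.000769) and 1.62 in WT (adjusted p = 9.09e-16). The other KO peak was a coding-exon peak of 125 bases at 0.50. Of the other WT peaks, 1 lay at the gene start in the 5' UTR, at 0.98 (adjusted p = 0.0154). Another lay in an intron at 1.35 (adjusted p = 3.95e-09), and 1 in the 3' UTR at 0.77 (adjusted p = 0.00138). None of those 3 overlapped a KO peak, and they were 3 of only 4 WT peaks among the 31 without a KO partner. RNA amount was not analysed here, so fewer peaks and less Jak3 RNA cannot be told apart, and the same holds for every gene below.

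Tyk2, which partners the interferon alpha receptor and the interleukin-12 receptor, showed the reverse in numbers, with 7 KO peaks and 4 WT peaks. Its 3' end peak on chromosome 9 stood at 1.06 in KO (adjusted p = 1.90e-12) and 0.88 in WT (adjusted p = 4.01e-16), and its 5' UTR peak at the gene start stood at 0.68 in KO and 0.98 in WT. The strongest peak was therefore at the 3' end in KO and at the 5' end in WT. The KO value of the strongest peak was higher by 0.07, but lower by 0.30 where the KO peak overlapping the strongest WT peak is used. Of the 7 KO peaks, 3 had no WT partner, with log2 values of 0.57, 0.67 and 0.92. The 0.67 peak is annotated as 3' UTR of a shorter transcript and lies 19761 bases before the end of the gene. The coding-exon peaks stood at 0.60 and 0.66 in KO and at 0.39 and 0.43 in WT.

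**Figure D3:**
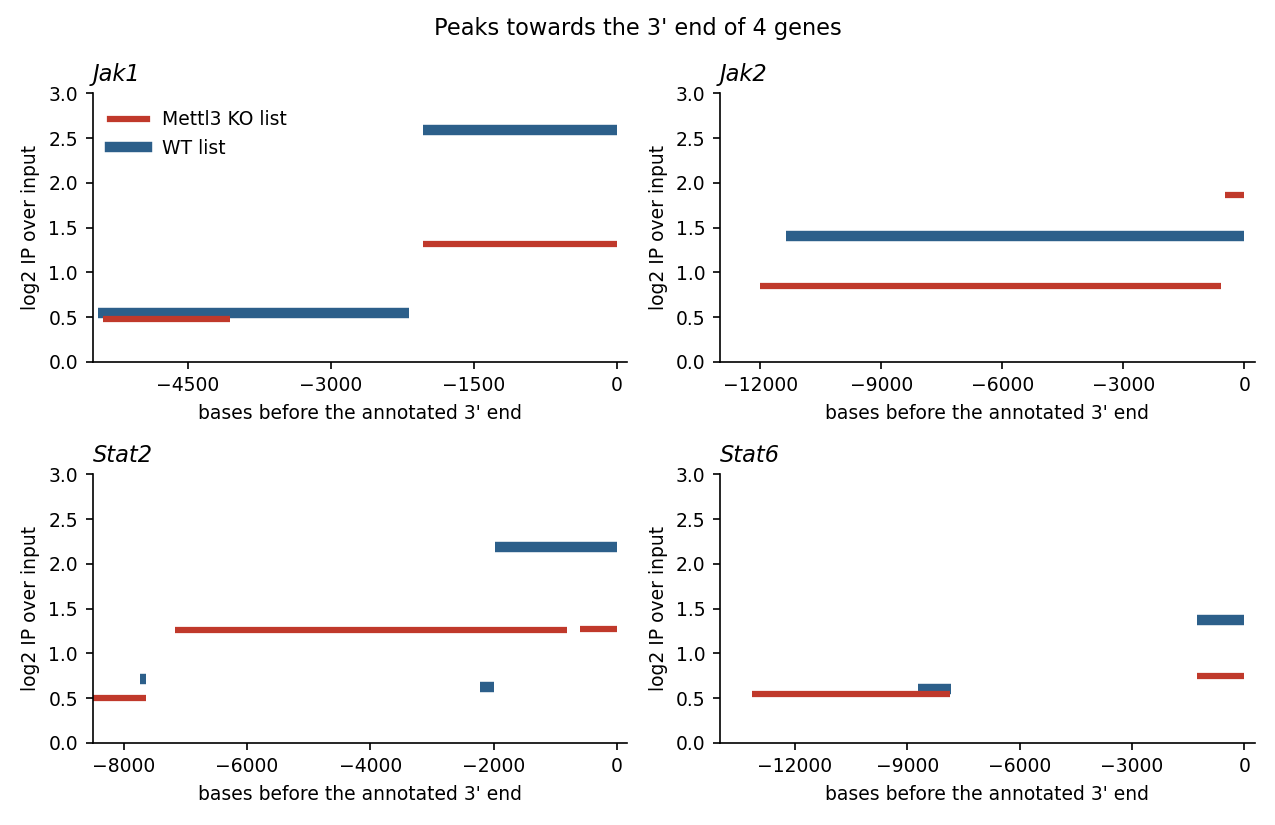
Peaks towards the 3' end of Jak1, Jak2, Stat2 and Stat6, each drawn as a line from its start to its end (x axis, bases before the annotated 3' end of the gene, introns included) at its log2 of IP over input (y axis). Thin lines are the Mettl3 KO list and thick lines the WT list; the last WT peak is the higher for Jak1, Stat2 and Stat6, and the last KO peak for Jak2.

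Stat2, which binds IRF9 in the complex that carries type I interferon signals to DNA, had 6 peaks in each list and the second-highest WT value of the group. The WT peak at its 3' end runs on chromosome 10 from 128290877 to 128292848 with a log2 of 2.19 (4.57-fold, adjusted p = 1.90e-232). In KO the same stretch was covered by 2 peaks, from 128285692 to 128292048 at 1.26 (adjusted p = 2.70e-65) and from 128292249 to 128292848 at 1.28 (adjusted p = 5.99e-37). Both KO values lay below the WT value: the difference was -0.92 with the stronger KO peak and -0.93 with their span-weighted mean. It was -0.155 between the means over all peaks of the gene, and 0.25 among peaks of at most 1000 bases, a setting that leaves out the WT peak at the 3' end. The 5' UTR peak at the gene start was nearly equal, at 0.83 in KO and 0.86 in WT. Coding-exon peaks stood at 0.50, 0.50 and 0.73 in KO, and at 0.63 and 1.02 in WT, which also listed 2 intron peaks at 0.60 and 0.71.

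Stat3, the transducer of interleukin-6 and interleukin-10, had weak peaks and few of them, 3 in KO and 2 in WT. Its strongest peak had identical limits in both lists, from 100886623 to 100887047 on chromosome 11, and stood at 0.69 in KO (adjusted p = 3.01e-17) and 0.92 in WT (adjusted p = 3.30e-25). This peak lies 1525 bases short of the annotated end of the gene. Within the lists, 90% of KO genes and 75.8% of WT genes had a stronger best peak than Stat3. The difference of -0.23 is that of a typical gene: 51% of genes had a lower one, and it changes sign once the median of all genes is subtracted. A coding-exon peak stood at 0.53 in KO and 0.62 in WT, and a further KO peak in the 3' UTR stood at 0.44.

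Stat5a and Stat5b are neighbouring paralogs that carry colony-stimulating factor and common gamma chain signals, and reads from their near-identical stretches cannot be assigned with certainty. Their 3' end peaks hardly differed between the lists: Stat5a stood at 0.71 in KO and 0.74 in WT, and Stat5b at 1.04 in KO and 1.03 in WT. Stat5a had 6 KO peaks and 3 WT peaks. Its strongest KO peak was a coding-exon peak of 375 bases, from 100874851 to 100875225 on chromosome 11, at 1.29 (adjusted p = 0.000447), with no WT partner. It set the gene's difference of 0.55, the highest of the 9, and the difference was -0.030 at the 3' end. A KO peak in the 5' UTR stood at 0.80 (adjusted p = 0.0115). The other coding-exon peaks stood at 0.62, 0.61 and 0.57 in KO and at 0.70 and 0.57 in WT. Stat5b had 4 KO peaks and 3 WT peaks. Its strongest WT peak, annotated as 5' UTR, spanned 28145 bases with introns and stood at 1.04 (adjusted p = 0.000153), with no KO partner. A KO peak also annotated as 5' UTR spanned 24407 bases next to it and stood at 0.57. This KO peak contains the remaining WT peak, a coding-exon peak that stood at nearly the same value, 0.58. The remaining KO peaks were a 3' UTR peak at 0.65 and a coding-exon peak at 0.34. Stat5b thus had equal strongest values, 1.04 in each list, taken from different ends of the gene.

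Stat6, the factor of interleukin-4 and interleukin-13 responses, differed in opposite directions at its ends. The 3' UTR peak, from 127659706 to 127660955 on chromosome 10 and identical in both lists, stood at 0.74 in KO (adjusted p = 8.77e-91) and 1.37 in WT (adjusted p = 4.05e-270). The 5' UTR peak at the gene start stood at 1.09 in KO (100 bases, adjusted p = 2.12e-16) and 0.57 in WT (125 bases, adjusted p = 1.63e-05). The coding-exon peak was close in value, at 0.54 in KO and 0.60 in WT. The strongest Stat6 peak was therefore at the 5' end in KO and at the 3' end in WT, and the difference of -0.28 between strongest values sets unlike positions against each other. At matched positions it was -0.63 at the 3' end and 0.52 at the 5' end. The 3' UTR peak of Stat6 shared 38 bases with a Nab2 peak on the other strand in each list, and the libraries were strand-marked. No other member peak overlapped a peak of another gene.

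Stretches from the first transcribed bases of genes with a peak there are shown because m6A is written in a short sequence context, which the series text gives as RRACH. That motif is a pair of purines (A or G), then A and C, then any base but G. RefSeq gives 11 start windows for the 9 genes (build GRCm38.p6). The motif was searched in the first 50 transcribed bases, on both strands. Stretches of 30 bases are given 5' to 3' on the transcript strand, with the motif in capitals.
Stat6, chr10:127642986-127643015, plus strand: gagaagccggAAACAgcaggccggggcagc
Tyk2, chr9:21131226-21131255, minus strand: tggcgcgtaggcggtGGACTtccagcggct
Stat5b, chr11:100822521-100822550, minus strand: gtgagcagtgaacgagtgtAGACAgagctc
Jak3, chr8:71676383-71676412, plus strand: gtctctgcacagctcccaccccagaagggt
The peak lists name no build, but 13046 of 13047 genes matched by symbol overlapped their RefSeq position in this one. The Stat6 and Jak3 stretches are bases 1 to 30 of their windows, and those of Tyk2 and Stat5b are bases 21 to 50. The motif of Stat6, which starts at base 11, and that of Tyk2, which starts at base 36, lay inside the KO peak and the WT peak. Of the Tyk2 stretch, only 18 bases lay under the peaks, which end at the annotated gene start. The Stat5b motif, which starts at base 40 of 1 of the gene's windows, lay inside the long WT 5' UTR peak and in no KO peak. The other Stat5b window lay inside the same WT peak, held no motif and is not shown. The Jak3 window, covered by the WT peak only, had none on the transcript strand. On that strand 4 of 11 member windows held the motif, against 44.6% of 32851 windows, and on the other strand 5 of 11, against 44.9%. The motif is thus common at gene starts, and its match or absence here says nothing of where m6A lies.

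By strongest peak, 6 of the 9 genes had the lower value in the KO list (Jak1, Jak3, Stat2, Stat3, Stat6 and, at only -0.0037, Stat5b), against 73.4% of all genes. The other 3 had the higher value, and each of these turned when the strongest WT peak was set against the span-weighted mean of the KO peaks that overlap it: to -0.52 for Jak2, -0.30 for Tyk2 and -0.030 for Stat5a. With that measure 8 of 8 members with such a peak were lower in KO. It sets a peak chosen as the highest in WT against a KO average, which tilts it toward lower KO values. Its weights are spans that include introns, and it was not computed for all genes, so no share of all genes stands beside it. Among peaks of at most 1000 bases, in contrast, 2 of 7 members were lower in KO, against 58.2% of all genes. The medians there were 0.17 for the members and -0.05 for all genes. That limit gives no value for Jak1 and Jak2, which have no WT peak so short. It also leaves out the 3' end peak of Stat6 in both lists and that of Stat2 in WT. The count of members thus depends on which peaks are compared. With the strongest peak, the members' median difference was -0.23, close to the -0.25 of all genes, with a range from -1.27 to 0.55. Relative to that shift 4 genes stood below it, Jak1, Stat2, Jak3 and Stat6. The range between the quartiles of all genes, -0.64 and 0.015, held 4 members, with 2 below it (Jak1 and Stat2) and 3 above it (Jak2, Tyk2 and Stat5a). Jak1 and Stat2 lay above only 3.93% and 12.3% of genes. Jak2 and Stat5a lay above 96.7% and 97.6%, by the strongest-peak values that turned as given above.

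**Figure D4:**
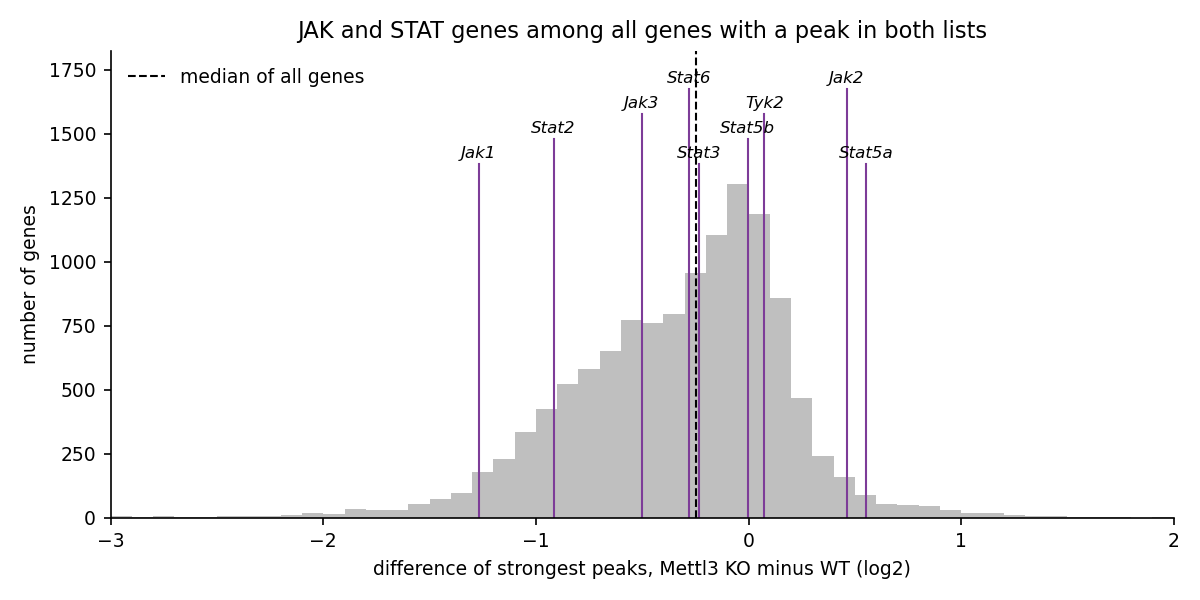
Histogram of the difference between strongest peaks, Mettl3 KO minus WT in log2 units (x axis), over genes with a peak in both lists (y axis, number of genes per 0.1), with 35 genes outside the plotted range. Lines mark the 9 members and the dashed line the median of all genes, -0.25; the members lie on both sides of it.

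Differences were also read by annotated region, between the strongest peak there in each list, and the peaks compared need not overlap. For 3' UTR peaks the lower value was in KO for 6 of 9 members, against 71.4% of all genes with such peaks in both lists, with medians of -0.23 for the members and -0.19 for all genes. For coding-exon peaks it was 6 of 8, against 70.6%, with medians of -0.09 and -0.10. The peaks compared did not overlap for Jak1, Stat5a and Stat5b. For 5' UTR peaks it was 3 of 4, against 73.2%, with medians of -0.05 and -0.16. Here the peaks compared did not overlap for Stat5b (-0.47) and Tyk2 (-0.06). The members' shares were near those of all genes, and the 3 largest differences below 0, those of Jak1, Stat2 and Stat6, were all at 3' UTR peaks. Among peaks reaching the 3' end, 5 of 8 members were lower in KO, against 62.1% of 7116 genes, and the medians were -0.27 and -0.08.

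**Figure D5:**
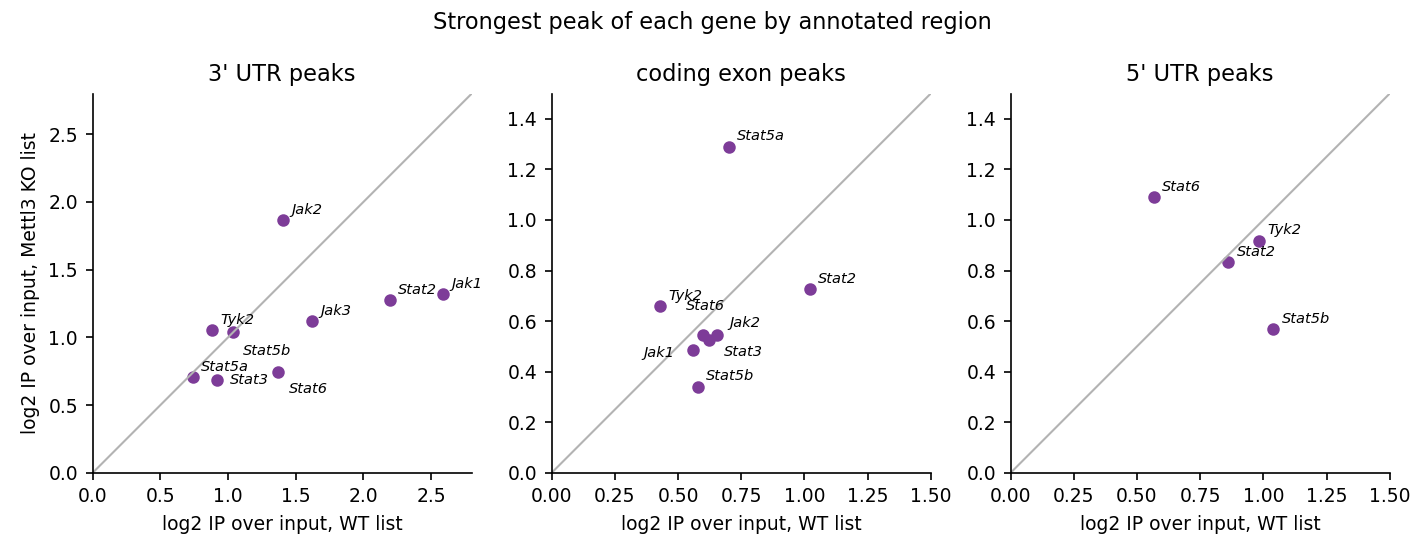
Strongest 3' UTR, coding-exon and 5' UTR peak of each gene that has one in both lists, with log2 of IP over input in the Mettl3 KO list (y axis) against the WT list (x axis); the 3' UTR panel has a wider scale and the line marks equal values. Jak1, Stat2, Stat6 and Jak3 lie furthest below the line among 3' UTR peaks, while among coding-exon peaks Stat5a and Tyk2 lie above it. The peaks compared need not overlap.

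The narrowest comparison used peaks with the same limits in both lists. There were 4 among the members, and all had the lower value in KO, as did 61.9% of 2916 such peaks in the lists: the 3' UTR peaks of Jak1 (-1.27), Stat6 (-0.63) and Stat3 (-0.23) and the Jak1 coding-exon peak (-0.12). The median of all such peaks was -0.06.

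Peaks with a partner in the other list were counted next. Of the KO peaks 26 of 40 overlapped a WT peak by at least 1 base on the same strand (65%, 95% Wilson interval 49.5 to 77.9), against 72.9% of all KO peaks. Of the WT peaks 27 of 31 overlapped a KO peak (87.1%, interval 71.1 to 94.9), against 77.2% of all WT peaks. These intervals cover counting of peaks only, and they treat peaks of the same gene as independent, which they need not be. A WT peak divided into several KO peaks, as for Jak2 and Stat2, counts more than once among the KO peaks. When at least 50% of both peaks had to be shared, the shares were 37.5% of KO peaks and 48.4% of WT peaks, against 47.3% and 53.1% of all peaks. The 14 KO peaks without a partner had a median log2 of 0.55 (0.34 to 1.29) and were spread over 8 genes, all but Stat6. All KO peaks without a partner had a median of 0.56. Of the 14, 3 lay above the 0.70 median of all KO peaks: the strongest Stat5a peak at 1.29, the Tyk2 peak at 0.92 and the Stat5a 5' UTR peak at 0.80. The 4 WT peaks without a partner, on Jak3 and Stat5b, had a median of 1.01 (0.77 to 1.35), against 0.74 for all such WT peaks.

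Genes around the kinases and factors were looked up in 4 lists, and each count is to be read against the 73.4% of all genes lower in KO and their median of -0.25. Examples were taken among the highest genes, at most 6 a list, at 4-fold or more in either genotype. Of the 19 such genes with a peak in both genotypes, 10 were at 4-fold in both and 9 in WT only; the 9 were bound to be lower in KO, so the examples show levels and not the direction of a list. Genes that were higher in KO are named after their values were seen.

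Of 30 receptor subunit genes 21 had a peak in both lists, and 17 of those had the lower value in KO (81%, median -0.45, against 73.4% and -0.25 of all genes). Il21r, which signals through Jak1 and Jak3, stood at 2.63 in KO and 4.17 in WT. Ifnar2, a chain of the type I interferon receptor, stood at 2.36 in KO and 3.19 in WT, and the interleukin-10 receptor chain Il10ra at 2.53 in KO and 3.12 in WT. Il6ra, the interleukin-6 binding chain, did not follow, at 2.65 in both lists, and Crlf2, a receptor chain for thymic stromal lymphopoietin, was higher in KO, at 0.94 against 0.70 in WT. Of the 21 receptor genes, 10 were at 4-fold or more in at least 1 list, as were 28.4% of 12320 genes and 1 of the 4 kinase genes.

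Genes that restrain the pathway included SOCS proteins, which block the receptors or kinases, PIAS proteins, which restrain STATs, and phosphatases. Of these 19 genes 18 had a peak in both lists, and 16 were lower in KO (88.9%, median -0.71, against 73.4% and -0.25 of all genes). Socs6 stood at 2.44 in KO and 4.01 in WT, and Pias2 at 2.00 in KO and 2.75 in WT. Socs5 differed less, at 2.59 in KO and 2.89 in WT, and Pias3 was higher in KO, at 1.04 against 0.95 in WT. Socs1, named after its value was seen, had a peak in WT only. Among peaks of at most 1000 bases 6 of 12 restraints and 9 of 13 receptors were lower in KO, against 58.2% of all genes.

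Of 11 partners and adaptors 8 were lower in KO (72.7%, median -0.34), which is near the 73.4% of all genes. The coactivator Ep300 stood at 2.19 in KO and 3.08 in WT. The JAK-binding adaptor Stam stood at 1.38 in KO and 2.39 in WT, while its relative Stam2 was higher in KO, at 0.89 against 0.52 in WT. Of 22 known STAT target genes 17 had a peak in both lists, and 13 were lower in KO (76.5%, median -0.19), again near the 73.4% of all genes. Mcl1, which protects cells from apoptosis, stood at 2.08 in KO and 3.38 in WT, and the interferon-induced Isg15 at 1.52 in KO and 2.54 in WT. Nos2, the inducible nitric oxide synthase, was higher in KO, at 1.05 against 0.75 in WT. Arg1 had a peak in KO only, at 0.93. Among peaks of at most 1000 bases 5 of 10 partners and 6 of 15 targets were lower in KO, against 58.2% of all genes. After subtracting the median of all genes, which leaves 50% of all genes lower by construction, 6 of 11 partners and 7 of 17 targets were lower. With the same step 13 of 21 receptors and 14 of 18 restraints were lower. The lists themselves assign 82 genes besides the 9 members to the KEGG JAK-STAT pathway. Genes of the 4 lists above were not taken out of this set, so it is not a separate one. Of the 82, 74 had a peak in both lists and 59 of those were lower in KO (79.7%, median -0.56, against 73.4% and -0.25 of all genes). This count was made after seeing the data. These lists describe the 2 peak lists and were not tested.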

How the data were processed

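Per the labels' protocols, polyadenylated RNA was fragmented, precipitated with an m6A antibody and made into strand-marked libraries. Tools listed in the submitters' processing notes, without roles, are HISAT2, StringTie, HOMER, edgeR, fastp and FastQC. Which of them called the peaks, on what build and with which replicates pooled is not stated there. Per the file headers, the authors deposited for every peak its log2 fold (IP against input), its p-value and adjusted p-value, its region and its gene. Depth is unknown.

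Peaks were taken by gene name. A gene was given the log2 of its strongest peak, and differences are Mettl3 KO minus WT. Start positions count from 0 in the lists, since 5186 KO peaks and 5098 WT peaks began at the annotated gene start once 1 was added; 1-based positions are printed. Spans include introns. Overlap used bedtools 2.31.1. Tables were handled in pandas 2.3.3 and numpy 2.4.6 under Python 3.11.15, intervals came from SciPy 1.17.1 and figures from matplotlib 3.10.9. The strongest-peak differences and the overlap step were checked on a copy of the WT list with known shifts and removals. That copy held no noise and no changed peak limits, and the other steps were not checked in this way. All members are named. In the 4 pathway lists, genes at 4-fold or more in either list or with a peak in 1 list only were eligible, at most 6 a list. The members and lists were chosen with earlier results of these data known.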

Additional observations from a re-analysis of the deposited data

How the results depend on the processing

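No paired analysis was possible because each genotype has 1 peak list with no value per replicate, and for the same reason no replicate could be left out. Spread and depth per library therefore stay unknown. Among peaks of at most 1000 bases 2 of 7 members, not 6 of 9, had the lower KO value; their median difference was 0.17 (58.2% of all genes were lower, median -0.05). In that setting the list counts were 9 of 13 receptors, 6 of 12 restraints, 5 of 10 partners and 6 of 15 targets, and Stat2 (0.25), Stat5b (0.0034) and Stat6 (0.49) turned. Jak1 and Jak2 had no value there, and the WT 3' end peaks of Stat2 and Stat6 were left out. Member peaks numbered 20 in KO and 16 in WT at that length, and 0 and 2 at 4-fold or more. No share of all peaks stands beside these counts, so they are not read as a trait of the members. Subtracting the median of all genes turned the members' median to 0.013, Stat3 to 0.013 and Stat5b to 0.24. It left 13 of 21 receptors, 14 of 18 restraints, 6 of 11 partners and 7 of 17 targets lower, against 50% of all genes by construction. The members' median was -0.15 when a gene's peaks were averaged, against -0.17 over all genes. It was -0.40 with the KO peak overlapping the strongest WT peak. That last setting turned Tyk2 (-0.30) and Stat5a (-0.0299). It starts from the strongest WT peak, as does the span-weighted setting below, and this tilts both toward lower KO values. Neither was computed for all genes. Settings chosen after seeing the data gave medians of -0.51 with span-weighted KO peaks, which turned Jak2 (-0.52), Tyk2 (-0.30) and Stat5a (-0.0299), and -0.27 with peaks at the 3' end, which turned Stat5a (-0.0299) and Stat5b (0.0034). With 3' UTR peaks only, Stat5a (-0.0299) and Stat5b (0.0034) turned as well. Under a reciprocal overlap of 50% the matched share was 37.5% of KO peaks and 48.4% of WT peaks. Of the members' WT peaks at 4-fold or more, 100% (2 of 2) had a partner, with no share of all such WT peaks beside it. Jak1 and Jak3 kept the lower KO value under every setting that gave them a value, from -1.27 to -0.59 and from -0.502 to -0.255. Most of these settings compare the same 3' end peaks of each gene, so they are not separate checks.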
